A study of Mus musculus with 16 samples.

Results

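Head-to-head coding gene pairs are neighbours on opposite strands whose starts face away from each other across a short stretch of DNA, so that 1 region lies upstream of both genes. They were located in the mouse gene annotation that was deposited with an RNA sequencing study of spleen. A pair was a minus-strand and a plus-strand coding gene with the plus-strand start lying 1 to 1000 bp above the minus-strand start, each start being the outermost 5′ exon end over the gene's transcripts. Of 20508 gene symbols with coding segments, 97 lay on several chromosomes or strands and were left out. Among the other 20411 coding genes, 799 pairs were found, and they held 1594 genes, or 7.81% of the coding genes, the background against which every gene list below is read. The count of genes falls short of 2 per pair because 3 genes had several partners.

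The study sequenced polyA RNA from 16 untreated spleen samples of mice, 4 in each of 4 groups. The codes NG66 and NG108 in the labels each name 1 wild-type group. The other groups were a double knockout with the genotype TNFR1-/-, TNFR2-/-, and a triple knockout with the genotype Zfp36-/-, TNFR1-/-, TNFR2-/-. Both knockout groups carry the study code NG66, and both lack the 2 TNF receptors. Zfp36 encodes tristetraprolin (TTP), an RNA-binding protein that speeds the decay of cytokine mRNAs. The file analysed here holds gene coordinates on mm10 and no value of any sample, so expression of the pairs in these spleens was not analysed here. Counts and medians below describe 1 annotation, with no replicate and no sampling of animals behind them, and no test was made.

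A divergent promoter starts transcription in both directions from nearby but separate initiation sites. Such promoters in mammals are known to be rich in CpG dinucleotides, poor in TATA boxes and frequent among housekeeping genes, including those for DNA repair, mitochondrial function and chaperones. The arrangement is also known from genes whose products work together, such as the chains of type IV collagen and the mitochondrial chaperonin with its co-chaperonin.

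The DNA between the starts is shown for 13 pairs. Each sequence is the plus strand of GRCm38.p6 (the assembly of mm10) taken from RefSeq's promoter windows, and runs from 25 bases inside the minus-strand gene to 25 bases inside the plus-strand gene. Capitals mark exact matches to the letters of a motif on either strand. The TATA box was searched as TATAAA. The letters of the CCAAT box, known to be bound by NF-Y, are in its name. The GC box, known to be bound by Sp1, was searched as GGGCGG. For the core of sites of ETS factors the letters were CCGGAA. The E-box, known to be bound by Myc and USF, was searched as CACGTG. The core of the interferon-stimulated response element (ISRE) was searched as GAAANNGAA. A match describes letters and not binding. The first 4 are shown because so few bases separate the genes: both pairs of collagen IV chains, the pair with the smallest spacing, and a respiratory chain subunit beside a translation factor.
Col4a1/Col4a2, chr8:11312802-11312853: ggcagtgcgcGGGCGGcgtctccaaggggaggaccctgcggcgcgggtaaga
Col4a4/Col4a3, chr1:82586825-82586945: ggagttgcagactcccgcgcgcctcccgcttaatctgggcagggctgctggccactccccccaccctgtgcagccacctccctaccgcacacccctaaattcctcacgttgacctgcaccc
Capza1/St7l, chr3:104864481-104864530: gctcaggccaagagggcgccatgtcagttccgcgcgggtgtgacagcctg
Ndufs1/Eef1b2, chr1:63176798-63176855: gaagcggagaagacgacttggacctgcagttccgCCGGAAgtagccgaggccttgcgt
Col4a1 and Col4a2 lay 3 bp apart with 1 GC box over the span shown, and Col4a4 and Col4a3 lay 72 bp apart with none of the motifs. Capza1, an actin capping protein subunit, and St7l started 1 bp apart, on adjacent bases. Ndufs1, a complex I subunit, and Eef1b2, a translation elongation factor subunit, started 9 bp apart, and 1 ETS core lay just inside Eef1b2.

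The next 4 join genes of the mitochondrion or a ribosome, to show how nuclear genes for mitochondrial proteins are paired.
Hspd1/Hspe1, chr1:55087908-55088172: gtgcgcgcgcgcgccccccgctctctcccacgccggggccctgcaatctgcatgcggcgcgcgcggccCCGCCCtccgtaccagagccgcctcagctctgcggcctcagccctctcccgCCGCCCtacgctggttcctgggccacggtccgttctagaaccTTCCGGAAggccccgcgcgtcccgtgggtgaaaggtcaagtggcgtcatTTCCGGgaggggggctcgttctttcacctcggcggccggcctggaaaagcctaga
Mrpl46/Mrps11, chr7:78783065-78783155: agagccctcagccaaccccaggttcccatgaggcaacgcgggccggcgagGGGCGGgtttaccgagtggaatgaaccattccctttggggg
Mrps12/Sars2, chr7:28741757-28741992: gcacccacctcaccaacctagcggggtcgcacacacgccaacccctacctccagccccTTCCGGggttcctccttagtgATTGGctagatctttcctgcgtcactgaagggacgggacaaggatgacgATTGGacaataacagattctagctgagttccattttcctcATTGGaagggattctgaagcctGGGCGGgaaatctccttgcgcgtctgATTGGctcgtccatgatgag
Rps28/Ndufa7, chr17:33824474-33824638: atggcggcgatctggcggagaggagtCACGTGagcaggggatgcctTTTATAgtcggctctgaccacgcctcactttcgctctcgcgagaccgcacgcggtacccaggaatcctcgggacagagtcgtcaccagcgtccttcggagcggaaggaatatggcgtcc
Hspd1 encodes the mitochondrial chaperonin Hsp60 and Hspe1 its co-chaperonin Hsp10, and their 216 bp interval with its flanks held 33 CpG, 2 GC boxes and 3 ETS cores. The pair Mrpl46/Mrps11 joins a protein of the large and a protein of the small mitochondrial ribosomal subunit, 42 bp apart, with 1 GC box. The sequence of Mrps12 and Sars2, a mitochondrial ribosomal protein and the mitochondrial seryl-tRNA synthetase, held 4 CCAAT boxes with its flanks, 1 of them inside Sars2. Rps28, of the cytosolic ribosome, and Ndufa7, of complex I, had 1 E-box and 1 TATA match between them.

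The last 5 are a histone pair, which differs in composition from the rest, and pairs that carry a gene of interferon or TNF signalling.
Hist1h2ae/Hist1h2bg, chr13:23571196-23571424: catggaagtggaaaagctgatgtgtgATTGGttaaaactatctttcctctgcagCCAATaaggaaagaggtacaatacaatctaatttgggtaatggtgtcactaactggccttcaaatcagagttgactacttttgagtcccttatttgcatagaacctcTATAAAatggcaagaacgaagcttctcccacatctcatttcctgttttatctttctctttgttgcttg
Psmb9/Tap1, chr17:34187306-34187580: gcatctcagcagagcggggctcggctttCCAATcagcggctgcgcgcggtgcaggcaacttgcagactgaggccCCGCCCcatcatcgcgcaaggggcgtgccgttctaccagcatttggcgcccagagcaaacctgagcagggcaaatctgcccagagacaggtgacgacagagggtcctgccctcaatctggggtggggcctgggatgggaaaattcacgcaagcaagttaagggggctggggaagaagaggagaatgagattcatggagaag
2010002M12Rik/Ifit1, chr19:34640719-34640913: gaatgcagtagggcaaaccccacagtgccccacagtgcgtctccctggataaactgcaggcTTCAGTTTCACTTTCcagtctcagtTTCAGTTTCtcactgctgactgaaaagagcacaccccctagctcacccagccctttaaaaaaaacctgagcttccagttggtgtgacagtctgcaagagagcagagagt
Oas1c/Oas1b, chr5:120812490-120812659: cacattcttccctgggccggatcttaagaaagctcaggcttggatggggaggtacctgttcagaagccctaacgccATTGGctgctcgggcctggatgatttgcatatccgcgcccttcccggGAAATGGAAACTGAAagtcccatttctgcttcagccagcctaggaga
Serpinb6a/Ripk1, chr13:34002770-34002898: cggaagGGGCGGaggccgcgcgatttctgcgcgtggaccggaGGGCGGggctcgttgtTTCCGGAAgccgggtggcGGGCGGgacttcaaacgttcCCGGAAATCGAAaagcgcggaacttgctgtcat
The histone sequence was 38.4% GC with 1 CpG, 1 TATA box and 2 CCAAT boxes. The sequence of Psmb9, a subunit of the immunoproteasome, and Tap1, a peptide transporter of antigen presentation, was 60.7% GC and held 1 CCAAT box and 1 GC box. Ifit1, an interferon-induced inhibitor of translation, shared its start region with 2010002M12Rik, with 3 overlapping or neighbouring ISRE cores and 1 CpG over 195 bases. Oas1c and Oas1b, of the 2′-5′ oligoadenylate synthetase family, had 2 overlapping ISRE cores and 1 CCAAT box. Serpinb6a, a protease inhibitor, and Ripk1, the kinase that relays signals of TNF receptor 1, had 3 GC boxes, 3 ETS cores and 1 ISRE core in 129 bases that held 19 CpG.

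The 799 pairs crowded the low end of the window. Their median spacing was 185 bp (interquartile range 95 to 335.5 bp). In 209 pairs (26.2%) the starts lay at most 100 bp apart, in 421 (52.7%) at most 200 bp, in 555 (69.5%) at most 300 bp and in 683 (85.5%) at most 500 bp. Only 116 pairs lay at 501 to 1000 bp, and 119 at 1001 to 2000 bp, a range that is wider by 500 bp, so the density of pairs was already low where the window ends. The smallest spacings belonged to Capza1/St7l at 1 bp, Col4a1/Col4a2 at 3 bp, 2810004N23Rik/Gnpat at 4 bp, Tmem186/Pmm2 at 6 bp, and Dhrs1/2610027L16Rik and Ndufs1/Eef1b2, both at 9 bp. Gnpat makes ether lipids in peroxisomes and Pmm2 supplies mannose for glycosylation. The pairs just inside the limit were Sgsm2/Tsr1 and Zfyve26/Rad51l1, both at 1000 bp, Ddx25/Pus3 at 996 bp, Urod/Hectd3 at 973 bp and Lnx2/Polr1d at 969 bp. The pairs just outside it were Serpina7/4930513O06Rik at 1007 bp, Bet1l/Ric8 at 1014 bp, 4632434I11Rik/Prcp at 1021 bp, Psd/Fbxl15 at 1028 bp and BC053749/Hspb6 at 1030 bp.

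**Figure D1:**
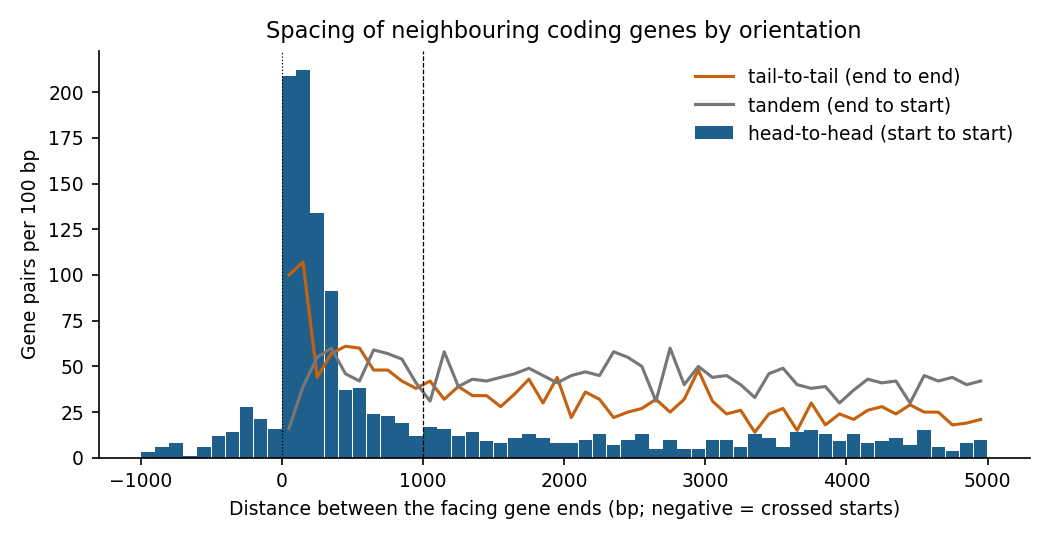
Number of coding gene pairs per 100 bp of distance between the ends that face each other: start to start for head-to-head pairs (bars), end to end for tail-to-tail pairs and end to start for tandem pairs (lines, distances of at least 1 bp). Negative distances are starts that cross, the dashed line is the limit of 1000 bp, and the bars peak in the first 200 bp, with 209 pairs at 1 to 100 bp.

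Other orientations at the same distances were less concentrated near 0. Tail-to-tail neighbours, whose 3′ ends face, numbered 605 at 1 to 1000 bp with a median gap of 395 bp, and tandem neighbours on 1 strand numbered 469 with a median of 545 bp. Within the first 100 bp there were 209 head-to-head, 100 tail-to-tail and 16 tandem pairs. From 2001 to 5000 bp the order was the opposite, with 284, 770 and 1291. Tandem counts pool pairs on the plus strand and pairs on the minus strand, whereas each other orientation has a single strand arrangement. The tandem counts are therefore not like for like with the others. Starts that crossed by 0 to 1000 bp, which the rule leaves out, occurred in 115 pairs, and 104 of those shared exon bases.

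Where the starts fall depends on how far the annotated transcripts reach. In GENCODE M21, a larger annotation of the same assembly, 785 of the pairs had both genes, and 588 of them (74.9%) again had starts 1 to 1000 bp apart. In 190 pairs (24.2%) the GENCODE starts crossed, and 7 were wider apart. The median spacing of these 785 pairs was 88 bp in GENCODE and 187 bp in the deposited annotation, crossed starts counting as negative.

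Of 12 textbook shared promoters looked up, 9 met the rule. Besides the collagen, chaperonin, Psmb9/Tap1 and Mrps12/Sars2 pairs above, they were Brca1/Nbr1 at 152 bp, Atm/Npat at 376 bp, Mcm4/Prkdc at 466 bp and Gart/Son at 852 bp. Brca1 and Nbr1 are a homologous recombination gene and an autophagy receptor. Atm encodes the kinase that senses double-strand breaks, and Npat the coactivator of histone transcription. Mcm4 is a subunit of the replicative helicase and Prkdc the catalytic subunit of the DNA-dependent protein kinase, and their spans were 13504 and 204374 bp. Gart catalyses steps of purine synthesis and Son organises nuclear speckles. In 2 others the starts crossed and the rule left them out: Surf1/Surf2, with a plus-strand start 109 bp below the minus-strand start, and Ppat/Paics, 167 bp below. Trp53/Wrap53 missed the window at 1035 bp. Fen1, the flap endonuclease of replication, faced 1810006K21Rik at 259 bp, whereas Cdc7 and Timm10 had no partner.

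Genes that keep DNA intact and copy it were among the most often paired of 26 gene lists. Of 112 genes for DNA repair and replication, 37 (33.0%) were in pairs, against 7.81% of all coding genes, and the 36 pairs with such a gene had spacings of 16 to 798 bp with a median of 164.5 bp. The partners came from many other processes. Orc3, of the origin recognition complex, lay 16 bp from Rars2, the mitochondrial arginyl-tRNA synthetase, and Fancd2, of the Fanconi anaemia pathway, lay 44 bp from Tmem111. Xrcc4, of end joining, lay 59 bp from Tmem167, and Xpc, which recognises bulky lesions, lay 147 bp from the splicing protein gene Lsm3. Mcm4/Prkdc was the only pair with both genes on this list. With a window of 200 bp the list's share was 18.8%, beside 4.11% of all coding genes.

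Nuclear-encoded mitochondrial genes formed another dense class. Their 3 lists held 23 of 76 mitochondrial ribosomal proteins (30.3%), 26 of 100 respiratory chain subunits and assembly factors (26.0%) and 9 of 41 import and chaperone genes (22.0%). Together 58 of 217 genes (26.7%) were in 53 pairs, and in 5 of those pairs both genes were mitochondrial by these lists. The list for the cytosolic ribosome differed in count from the mitochondrial one, with 10 of 83 genes (12%) in pairs. That list does not hold Rpl36al, 91 bp from Mgat2, or Fau, 137 bp from Mrpl49, so its count may be too low. Examples with both genes on a mitochondrial list were Sdhd/Timm8b at 52 bp, a succinate dehydrogenase subunit beside an import chaperone, and Mrpl47/Ndufb5 at 308 bp. Cox4nb, named for its neighbour Cox4i1 at 178 bp, is not a subunit of cytochrome oxidase, although its symbol placed it on the list. The median spacing was 105 bp for the 25 pairs with a respiratory gene and 148 bp for the 22 with a mitochondrial ribosomal gene.

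Other machinery of gene expression and protein turnover was also above the background. Splicing factors and RNA polymerase subunits were in pairs in 22 of 73 cases (30.1%), aminoacyl tRNA synthetases in 10 of 35 (28.6%), and proteasome and chaperonin subunits in 13 of 57 (22.8%). Hars and Hars2, the cytosolic and mitochondrial histidyl-tRNA synthetases, faced each other at 75 bp. Pairs whose genes fell on 2 different lists numbered 20. They included Mrpl32/Psma2 at 205 bp (mitochondrial ribosome and proteasome), Mrpl18/Tcp1 at 374 bp (mitochondrial ribosome and cytosolic chaperonin), Prpf38a/Orc1 at 118 bp (splicing and replication origin) and Dnajc2/Psmc2 at 118 bp (ribosome-associated chaperone and proteasome). Families known by structure alone also passed the background, with 25 of 145 coiled-coil genes named Ccdc (17.2%) and 28 of 215 Tmem genes (13.0%).

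**Figure D2:**
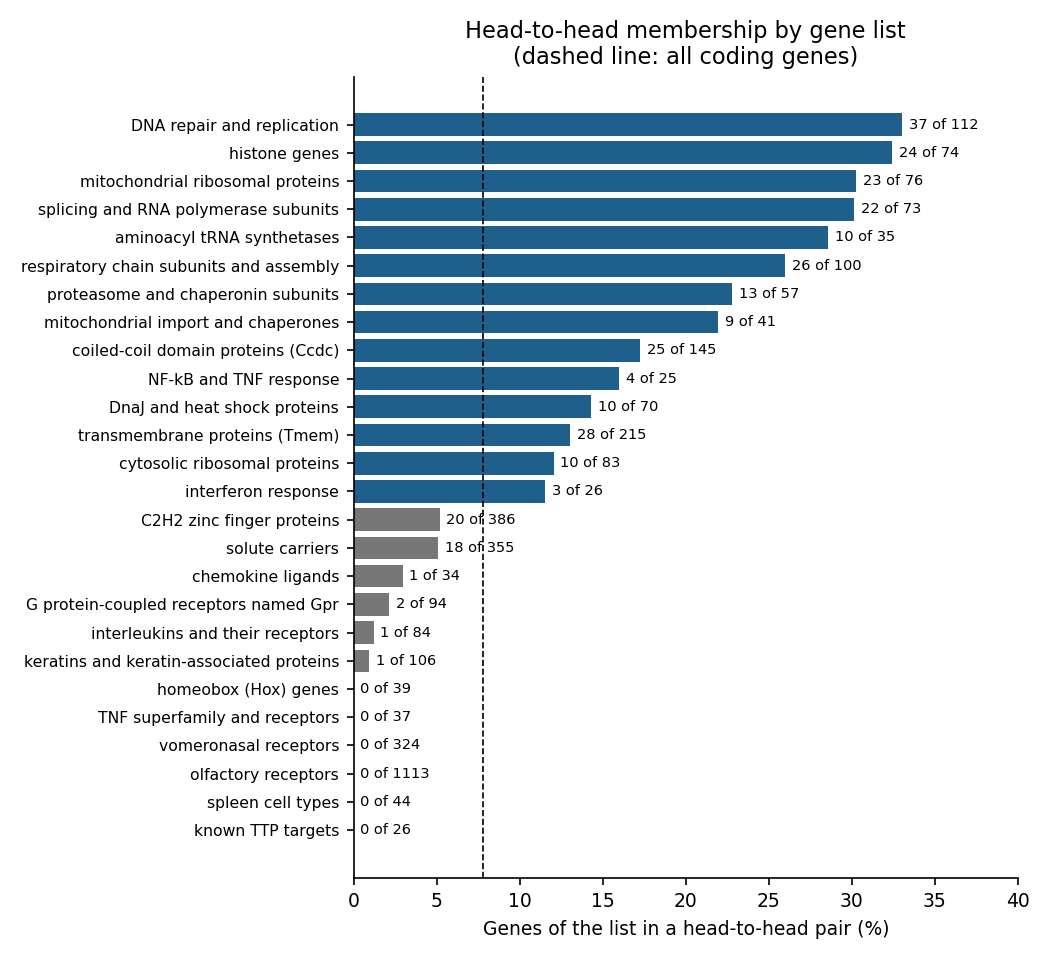
Share of each of 26 gene lists that lies in a head-to-head pair, with the number of genes beside each bar; the dashed line is the 7.81% of all coding genes. Lists for DNA repair, histones, mitochondria and RNA processing lie at 22.0% or more, and 6 lists have no gene in a pair.

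Histone genes combined a high share with partners of their own kind. Of 74 histone genes 24 (32.4%) were in pairs, and in all 12 of their pairs the partner was another histone. With a window of 200 bp the share fell to 5.41%, beside 4.11% of all coding genes, since most of these pairs are spaced more widely. In 11 of these 12 pairs an H2A gene faced an H2B gene, the 2 proteins that form a dimer in the nucleosome, and in Hist1h2bh/Hist1h3f an H2B gene faced an H3 gene. Spacings ran from 173 bp for Hist3h2bb-ps/Hist3h2a to 700 bp for Hist1h2bh/Hist1h3f, with a median of 280 bp. The symbol of Hist3h2bb-ps marks it as a pseudogene, but the annotation gives it coding segments. Clustered histone genes of the same class (H2A with H2A, H2B with H2B) can be nearly identical to each other, which the coordinates alone do not resolve.

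Members of 1 family or list were otherwise rarely joined. Both genes belonged to 1 list in 24 of 799 pairs, the 12 histone pairs included, and in 32 pairs the symbols shared their letters before the first digit. Among the latter were Abcg5/Abcg8 at 208 bp, which together form a sterol transporter, Safb2/Safb at 399 bp, nuclear scaffold proteins, Hspa1a/Hspa1l at 547 bp, of the Hsp70 family, Tmem176b/Tmem176a at 109 bp, and Zfp942/Zfp943 at 95 bp, zinc finger genes. In 559 pairs neither gene was on any list. Over the 26 lists together, 284 of 3749 genes (7.58%) were in pairs, beside 7.81% of all coding genes. The listed genes as a whole were therefore not above the background. Provisional names, such as those ending in Rik, belonged to 166 members (10.4%) and 1700 of the other coding genes (9.03%).

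Large receptor families, Hox genes and transporters were below the background or absent. None of 1113 olfactory receptor genes, 324 vomeronasal receptor genes or 39 Hox genes was in a pair. The receptor models were short, with median spans of 945 bp (olfactory) and 1112.5 bp (vomeronasal). Whether their annotated starts reach the true transcript starts was not checked. Solute carriers had 18 of 355 genes (5.07%) in pairs, a count that includes 2 genes, Slc4a1ap and Slc7a6os, named for a neighbouring or bound carrier. C2H2 zinc finger proteins had 20 of 386 (5.18%) and Gpr receptors 2 of 94 (2.13%). Of 106 genes on the list of keratins and keratin-associated proteins, 1 (0.943%) was in a pair. That gene, Krtcap2, faced Trim46 at 541 bp and is a subunit of the oligosaccharyltransferase, not a keratin.

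The genes that the study's mice lack were outside all pairs. The nearest coding start facing away on the other strand lay 13768 bp from Zfp36 (Paf1), 35853 bp from Tnfrsf1a (Ltbr) and 370276 bp from Tnfrsf1b (Gm13212). None of 26 known TTP targets, 37 TNF superfamily genes and receptors or 44 spleen cell type markers had a coding head-to-head partner. These lists are short, and whether their absence departs from the 7.81% of all coding genes was not tested. For the TTP targets the nearest coding start facing away lay at 5251 bp (Il23a, facing Pan2) to 1064071 bp (Myc). The median was 117806 bp, beside 71320.5 bp over all coding genes. Among 84 interleukin and interleukin receptor genes 1 (1.19%) was in a pair, Il17rb, which faced Chdh at 104 bp. Among 34 chemokine ligands it was also 1 (2.94%), Ccl25, a thymic and gut chemokine, which faced Elavl1 at 110 bp. Elavl1 encodes HuR, a protein that binds AU-rich mRNA.

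Intracellular signalling genes of the TNF and interferon pathways did occur in pairs. Of 25 genes on the NF-kB and TNF list, 4 (16.0%) were members. Tradd, the adaptor of TNF receptor 1, lay 54 bp from Fbxl8, and Ripk1 lay 80 bp from Serpinb6a. Ikbkg, the regulatory subunit of the IkB kinase, lay 152 bp from Fam3a, and Nfkbib, an inhibitor of NF-kB, lay 228 bp from Sirt2. Of 26 interferon response genes, 3 (11.5%) were members: Psmb9 and Tap1, facing each other at 226 bp, and Ifit1, at 146 bp from 2010002M12Rik. The pair Oas1c/Oas1b shown above is not counted here, because neither gene is on this list. Parp9 and Dtx3l, both on the list, had crossed starts, which the rule leaves out. With 4 and 3 genes, these shares rest on single genes. With the median 5′ end over transcripts as the gene start, the NF-kB and TNF list had 8%, beside 7.69% of all coding genes, and without genes that share exon bases it had 9.09%, beside 6.63%.

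Members spanned a narrower range of lengths than other coding genes, and the order of the median spans depended on which genes were counted. The median span, from the first to the last exon base, was 16670 bp for members (95% order-statistic interval 15700 to 18068) and 16928 bp for the other 18817 (16498 to 17364), and these intervals overlap. Leaving olfactory and vomeronasal receptors out of the others raised their median to 19286 bp (18719 to 19779), above the members' interval. Leaving out genes that share exon bases with another gene turned the order, with 18076 bp for members and 16696 bp for the others. The upper quartile was 34855 bp for members and 45823 bp for the others. Genes over 100 kb made up 97 members (6.09%) and 2221 others (11.8%). Single-exon genes made up 51 members (3.20%) and 2052 others (10.9%), or 4.88% of the others without those receptors. The first intron, measured where a gene has one, had a median of 2384 bp in members and 3010 bp in others, and the first exon 177.5 and 213 bp. Exons per gene had medians of 8 and 7, and coding length 1164 and 1221 nt. Without the receptors, the others had a median of 8 exons, a first exon of 200.0 bp and a coding length of 1290 nt.

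Close neighbours in other orientations had shorter spans than the members. Genes in tail-to-tail pairs that were in no head-to-head pair had a median span of 12262 bp, and those in tandem pairs 8504 bp, both below the members' 16670 bp. Spans over 100 kb were found in 4.89% of these tail-to-tail genes and 1.34% of the tandem genes. The first intron had a median of 1905 bp in tail-to-tail and 969 bp in tandem genes. Single-exon genes numbered 23 of 1043 tail-to-tail and 27 of 818 tandem genes. Few long genes, few single-exon genes and short first introns were therefore not particular to head-to-head pairs. Members had a median of 4 other coding starts within 100 kb besides the partner (95% interval 3 to 4), compared with 3 for other coding genes, 5 for tail-to-tail and 8 for tandem genes. The median was 4 for minus-strand and 3 for plus-strand members. Only a head-to-head partner was left out of these counts. The close neighbour of a tail-to-tail or tandem gene was counted where its start lay within 100 kb. The values of 5 and 8 are therefore not like for like with the members' 4.

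**Figure D3:**
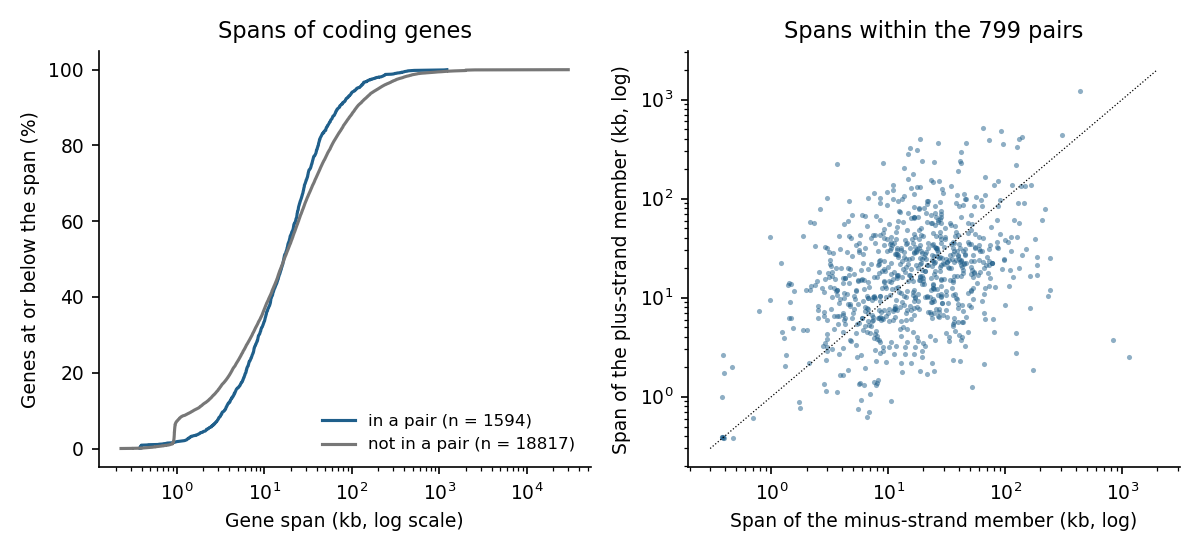
Left, cumulative share of coding genes by span (log scale) for 1594 genes in pairs and 18817 others; right, span of the plus-strand against the minus-strand member of each of 799 pairs (both log), with the line of equal spans dotted. The curves cross near their medians of 16670 and 16928 bp, and the points scatter widely around the line.

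Partners could differ greatly in size. The longer span was 2.44 times the shorter at the median, and more than 10 times in 62 pairs (7.76%). The largest ratios were ranked over the 797 pairs without a gene that has a numbered further copy of a transcript. The largest of these was 447, for Galntl6 at 1137576 bp, a glycosyltransferase-like gene, facing BC030500 at 2544 bp. The next were 227 for 5033411D12Rik/2810021B07Rik, 92.5 for Sobp/9030612E09Rik, 61.4 for Rbmxl1/Slc10a7 and 45.2 for Wdr27/1600012H06Rik. A member over 100 kb was present in 87 pairs, and both members exceeded 100 kb in 10, Col4a1/Col4a2 among them with 114404 and 136459 bp. Both members were under 10 kb in 140 pairs. The minus-strand member was the longer in 383 of 799 pairs. Across the 799 pairs, which share a chromosomal neighbourhood, Spearman's rho between partners was 0.36 for span, 0.03 for coding length and 0.03 for exon number. Spacing and the longer span had a rho of 0.05.

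Pairs were spread over all autosomes and the X chromosome, unevenly. The share of coding genes in pairs was highest on chromosome 8 (57 pairs, 11.5%), chromosome 12 (35 pairs, 11.4%) and chromosome 13 (42 pairs, 10.9%), the last including histone clusters. Chromosome 11 had the most pairs, 74, with a share of 9.46%. It was lowest on the X chromosome (18 pairs, 4.32%), chromosome 18 (11 pairs, 4.51%) and chromosome 6 (25 pairs, 4.56%), and none of 24 coding genes on the Y was in a pair. The genes with several partners lay on chromosomes 12 and 17. Ubr7 faced AK010878 and Gm20604, which have the same start, and 2210404J11Rik faced Gm3417, Gm3448 and Tcte3, which also have the same start. Gm6034 faced H2-T9 and H2-T22 of the major histocompatibility complex. Near-identical copies of a gene can take each other's coordinates, so these 7 pairs are uncertain.

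Promoter sequence was read from RefSeq's windows, which run from 250 bases before to 50 bases after a start. Windows were found for 1353 members (84.9%) and 14907 other coding genes (79.2%), and they covered 69.1% of coding genes on chromosome 8, 55.0% on chromosome 15 and none on chromosome 18. Composition was therefore compared on the chromosomes where at least 70% of coding genes had a window, over 1240 of 1402 members (88.4%) and 13922 of 16773 others (83.0%). Olfactory and vomeronasal receptors were not taken out of the others, here or for the motifs below. How far the differences depend on them was not tested. CpG dinucleotides were denser in the members. The median GC content was 62.3% in members and 56.3% in others, and the ratio of observed to expected CpG was 0.855 and 0.565. A window was called CpG-rich at a GC content of at least 50% and a CpG ratio of at least 0.6, which held for 1046 members (84.4%) and 6253 others (44.9%). Minus-strand members (83.8%) and plus-strand members (84.9%), each counting a pair once, differed little from each other. Genes of tail-to-tail pairs (57.8%) and tandem pairs (55.5%) lay in between. The 48 mitochondrial members with a window were CpG-rich in 93.8% of cases, and the 126 mitochondrial genes outside pairs in 72.2%.

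The difference in CpG density was larger upstream than at the start. In the 10 bases from 20 to 11 before the start, members averaged 9.70 and others 7.10 CpG per 100 bases. In the 10 bases at the upstream end, 250 to 241 before the start, the values were 7.28 and 3.18. For a member with a partner less than 250 bp away, the upstream end of its window lies inside the partner gene, so this profile and the spacing are not separate measures.

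**Figure D4:**
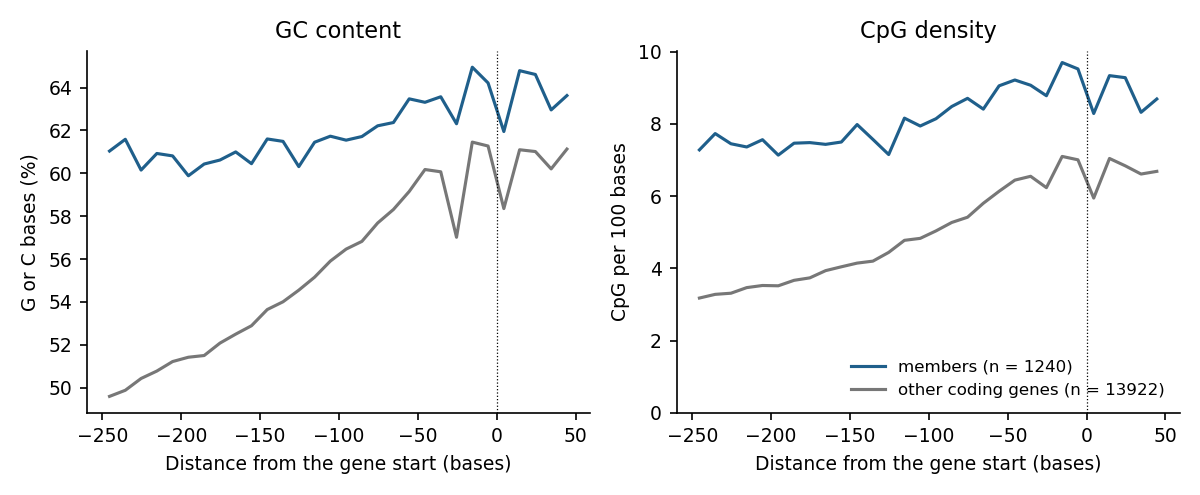
Mean GC content (left, %) and CpG per 100 bases (right) in steps of 10 bases from 250 before to 50 after the gene start, for 1240 members and 13922 other coding genes. The gap between the curves is wide at the upstream end, where CpG density is 7.28 in members and 3.18 in others.

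Spacing and composition moved together. CpG-rich windows made up 95.1% of members spaced 1 to 100 bp, 86.5% at 101 to 300 bp and 72.5% at 301 to 1000 bp. The ETS core was present in 56.2%, 46.1% and 35.5% of these classes. The CCAAT box had another order, with 23.5%, 52.6% and 46.3%, so it was least frequent where the starts lay closest.

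Among 10 motifs searched as exact letters on both strands, the ETS core CCGGAA separated members from others most in percentage points. It was present in 45.4% of member windows and 17.6% of other windows, beside 14.9% of all 32851 windows in the table. Within CpG-rich windows the shares were 49.9% and 28.7%. Genes of tail-to-tail and tandem pairs lay in between, with the ETS core in 26.1% and 27.2% of windows. It was in 54.2% of mitochondrial members and in 46.0% of mitochondrial genes outside pairs, so a high share was not particular to pairs. The GC box GGGCGG was in 69.3% of members and 46.9% of others (35.7% of all windows), but within CpG-rich windows the order turned, with 74.8% and 77.4%. The TATA box TATAAA was in 5.32% of members and 14.0% of others (13.6% of all windows), and in 4.26% of members without histones. Within CpG-rich windows it was in 3.44% and 5.02%. Tail-to-tail and tandem genes also lay in between for the GC box (58.3% and 59.3%) and the TATA box (8.47% and 8%).

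The other motifs were rarer or closer between the groups. AAGATGGC, a site of YY1, a zinc finger factor of many housekeeping promoters, was in 7.90% of members and 2.96% of others (2.75% of all windows), and in 8.89% and 4.57% of CpG-rich windows. TGACGTCA, the cAMP response element, was in 4.19% and 2.22% (1.79%), and GCATGCGC, the core of the NRF1 site, in 5.56% and 3.67% (2.71%). ACTACAATT, a site of ZNF143, was in 1.29% and 0.510% (0.393%). The shares were 43.0% and 38.6% for CCAAT (37.4%), 10.3% and 8.11% for CACGTG (7.15%), and 6.37% and 8.12% for the ISRE core GAAANNGAA (8.56%). Within CpG-rich windows the order turned for the NRF1 core (6.31% and 6.78%), CACGTG (10.9% and 11.9%) and the ISRE core (5.54% and 5.09%). The ISRE core was searched after the Ifit1 interval had been seen. Matches to different motifs can overlap, as the ETS and ISRE cores do between Serpinb6a and Ripk1, and the windows of partners overlap, so 1 site can count for both genes. Counted once per pair, the ETS core was in 47.1% of minus-strand and 43.7% of plus-strand members.

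**Figure D5:**
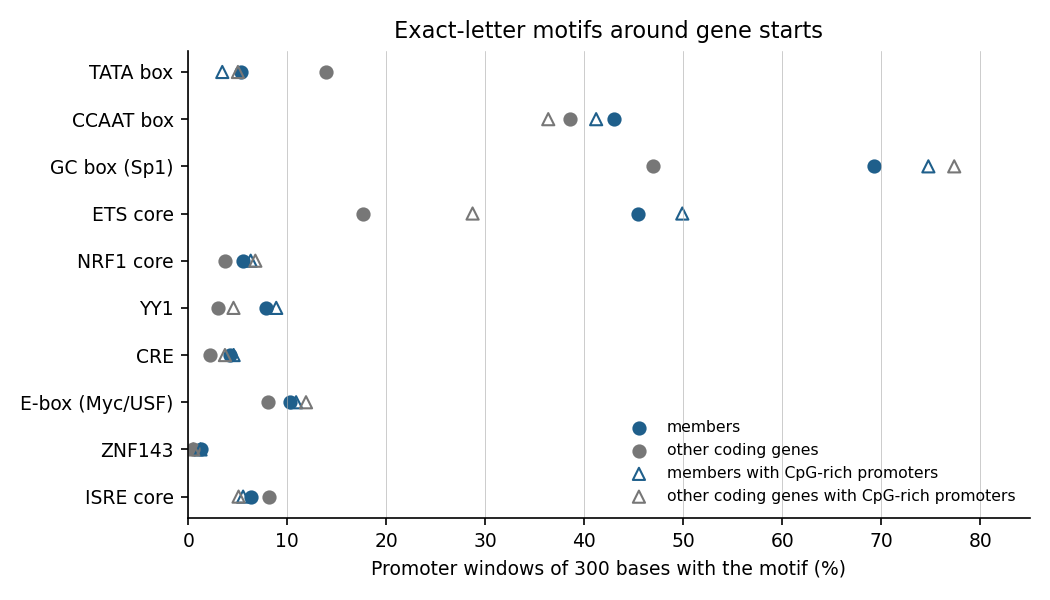
Share of 300-base promoter windows that hold each of 10 motifs, for members (blue) and other coding genes (grey), over all windows (filled circles) and over CpG-rich windows (open triangles). The ETS core differs most, at 45.4% and 17.6%, while the order for the GC box, NRF1 core, E-box and ISRE core turns within CpG-rich windows.

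Histone pairs had another promoter type. Of 20 histone members with a window, 1 (5%) was CpG-rich, the median GC content was 44.0%, and the ETS core was in 0. The CCAAT box was in all 20 and the TATA box in 14 (70%). Of 45 histone genes outside pairs, 75.6% had a CCAAT box, 44.4% a TATA box and 35.6% a CpG-rich window.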

How the data were processed

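RNA from 16 spleen samples was sequenced. The tool TopHat2 2.0.4 and the build mm10 are named in the submitters' processing notes. Who made the annotation is not given in the sources used here. Its deposited coordinates fill a file that holds 595686 lines of exons, coding segments and codons, none of them an expression value: 0 columns carry sample values, so there is no depth, no normalization and no group comparison, and per-sample expression was not analysed here. Coordinates are 1-based. Pairs, spans (first to last exon base) and gaps were computed with Python 3.11.15, pandas 2.3.3 and numpy 2.4.6. Medians have 95% order-statistic intervals. The pair search was tested on simulated annotation. No significance test was made, since genes are not replicates.

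Genes were matched to RefSeq (GRCm38.p6) by symbol (18230 genes), transcript accession (2095) or synonym (46), and 16260 had a promoter window of 300 bases on their own chromosome and strand. Chromosomes where under 70% of coding genes had one were left out of the comparison of composition, a choice made after seeing the data, which leaves 15162 genes. Of these 88.0% had a window start within 50 bp of the annotated start. Pair members and gene lists were chosen with earlier results of these data known. Named pairs are the genotype genes, textbook pairs, extremes of spacing and span ratio, same-family pairs, immune list members and genes with several partners. Some items are not reported here. Other examples were chosen after their values were seen. Alternative windows, start definitions, overlap and name filters, and GENCODE M21 were tried.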

Additional observations from a re-analysis of the deposited data

How the results depend on the processing

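No paired analysis was possible because coordinates of an annotation belong to no sample. Of 59 alternatives to the main values, 42 stayed within the limits set and 17 moved. Among the main values were a share of 7.58% of listed genes and a CpG ratio of 0.855. With a window of 200 bp there were 421 pairs, a share of 4.11% of coding genes, a median spacing of 101 bp, a share of 4.24% of listed genes and a CpG ratio of 0.891. A window of 500 bp gave 6.67% and 158 bp, and a window of 2000 bp gave 8.96%, 226 bp, 8.78% of listed genes and 0.838. These windows change the set by construction. Without genes that share exon bases with another gene, the pairs fell from 799 to 608 and the share was 6.63%. The share of listed genes was 6.44%. The median span was 18076 bp for members and 16696 bp for other coding genes, which turns their order. Without provisional names the pairs fell to 638 and the share was 6.88%. Both falls in the pair count stayed within the limits set. GENCODE M21, added after seeing the data, gave 7.03% and a median spacing of 137 bp for its own pairs. Promoters of all chromosomes, also added later, gave a CpG ratio of 0.861. The list with the highest share was DNA repair and replication, but histones passed it without genes that share exon bases (34.3% and 31.1%), without provisional names (32.4% and 32.1%) and with 2000 bp (41.9% and 37.5%). With 200 bp its 18.8% was passed by aminoacyl tRNA synthetases (22.9%), respiratory (20.0%) and mitochondrial ribosomal genes (19.7%). Gene lists changed sides of the background in 3 cases: interferon response and DnaJ and heat shock proteins fell below it with the 200 bp window, and cytosolic ribosomal proteins fell below it without genes that share exon bases. An annotation limits every spacing by the completeness of its transcript ends, and coordinates carry no depth or error of their own.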

Other observations

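A further 261 pairs joined a coding gene and a non-coding gene, out of 2802 non-coding genes, under the same distance rule. They involved 259 of the 20411 coding genes, of which 2 were also in a coding pair, and their median spacing was 158 bp. A microRNA or small nucleolar RNA gene was the partner in 8 of them, such as Polr3d/Mir320 at 39 bp. Host genes of small nucleolar RNAs appeared as Rps2/Snhg9 at 98 bp and Slc3a2/Snhg1 at 118 bp. Genes of lists above the background in coding pairs occurred here too. Cox10, an assembly factor of cytochrome oxidase, lay 12 bp from 2810001G20Rik, and Ddb2, a DNA damage sensor, 80 bp from A330069E16Rik. Rpa3, of the single-strand DNA binding complex, lay 147 bp from Gm16039. So did genes of lists below the background occur, such as Slc32a1 (35 bp), Zfp148 (39 bp) and Gpr19 (36 bp). No share per list is given for the non-coding pairs, so these examples do not rank functions. Ptgs2, which encodes cyclooxygenase 2 and is a known TTP target, faced the non-coding gene 7530420F21Rik at 358 bp, although it had no coding partner. These pairs were named after their values were seen.

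Exons of another gene lay between the starts in 3 coding pairs: Alkbh1/1810035L17Rik, H2-T9/Gm6034 and Cd160/Pdzk1. They are included in the counts above.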
